A study of Mus musculus with 32 samples.

Results

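RNA-sequencing libraries of neoplastic cells sorted from autochthonous mouse lung tumors were compared between 10 tumors in which *Lkb1* had been inactivated since initiation and 4 *KT* tumors in which *Lkb1* was wild-type, which together are 14 of the 32 libraries of the series. They were taken by the cohort given in the labels, without use of any measured value, and all were *Trp53* wild-type and collected 24 to 27 weeks after intratracheal delivery of Lenti-Cre. The 4 *KT* libraries came from Rosa26LSL-tdTomato mice that received no treatment, 2 male and 2 female. The 10 non-restored libraries came from mice that also carried Lkb1XTR/XTR, a conditional gene trap that starts in an expressed orientation and that Cre flips into a trapped one, which cuts *Lkb1* transcripts short, in the same cells that activate tdTomato. Of these, 6 came from vehicle-treated mice with a Rosa26 FLPo-ERT2 allele (replicates 1, 3, 4, 5, 6 and 10) and 4 from mice without FLPo-ERT2 that were given tamoxifen in doses of 4 mg over the last weeks before harvest (replicates 2, 7, 8 and 9), so that the trap remained in place in both arms. Females contributed 7 and males 3 of the non-restored libraries. Vehicle or tamoxifen was given only to XTR mice and the study's methods give *KT* mice a lower titer of virus, so genotype, treatment and titer cannot be told apart in this comparison. The study counts fewer non-restored and fewer restored mice than libraries, the labels do not say which tumors shared a mouse, and p-values therefore measure the spread between tumors. Levels are CPM, read counts scaled to a common library size after normalization by the trimmed mean of M values, and fold changes are log2 differences, non-restored minus *KT*, from edgeR's quasi-likelihood fit with Benjamini-Hochberg adjusted p-values, with a gene called changed below 0.05.

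LKB1, encoded by *Stk11*, is a serine/threonine kinase and a tumor suppressor frequently lost in human lung adenocarcinoma. Bound to the pseudokinase STRAD and the scaffold MO25, it phosphorylates the activation loop of AMPK, the cell's sensor of low energy, and of the AMPK-related kinases, which include the salt-inducible kinases (SIKs), the MARKs and the NUAKs. SIKs in turn phosphorylate the CRTC coactivators and hold them in the cytoplasm, which limits transcription by CREB. The cells of origin of lung adenocarcinoma include alveolar type II (ATII) cells, which make surfactant, lysozyme and other host-defence proteins and can give rise to the flat alveolar type I (ATI) cells of the gas-exchange surface.

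The *KT* libraries held 1302482 to 2649449 counts and the non-restored libraries 1485923 to 5080811, with 15764 to 18861 genes detected per library. A count of 3, the floor used for genes at or near 0, was worth 0.599 to 2.49 CPM. The labelled sex matched the sex-linked genes in 14 of 14 libraries. The summed CPM of 8 epithelial and ATII markers (*Epcam*, *Cdh1*, *Nkx2-1*, *Sftpc*, *Sftpb*, *Napsa*, *Krt8* and *Krt18*) was 26700 to 45400 in *KT* and 6860 to 42100 in non-restored tumors. The sums of markers of other cells were far below this sum in each library but non-restored replicate 8. There the airway sum came to 6600 CPM, of which the mucin gene *Muc5b* made up 6580.

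Several libraries stood apart. In *KT* replicate 1, the median gene of each chromosome deviated from the mean of the 14 libraries by 0.16 to 0.28 log2 units upward on 9 chromosomes (1, 2, 3, 6, 10, 12, 15, 17 and 19) and by -0.24 to -0.15 on the other 11, over 10392 genes with a mean above 5 CPM. Chromosome 6 aside, the other 13 libraries stayed between -0.11 and 0.16. On chromosome 6 the medians were 0.24, -0.05, 0.10 and 0.16 in *KT* replicates 1 to 4, 0.29 and 0.34 in non-restored replicates 4 and 8, 0.07 in replicate 5, and -0.16 to -0.12 in the other 7. Non-restored replicate 8 had the lowest ATII marker sum, and an airway marker sum of 6600 CPM against 50.5 to 1400 in the other 9. *Muc5b* alone made up 6580 of the 6600 CPM, and 1370 of the 1400 CPM in replicate 4. Of the other airway markers, *Cyp2f2* was at 12.8 CPM in replicate 8 (other non-restored libraries 15.8 to 140) and *Scgb1a1* at 3.94 (others 3.09 to 133). Non-restored replicate 2 had immune and macrophage sums of 47 and 255 CPM, against at most 10.3 and 95.8 in the other non-restored libraries. Without non-restored replicate 8 the airway marker *Tppp3* was called higher (1.69; adjusted p = 0.0306, against 0.114 with it). *KT* replicate 4 was low for immediate early genes, with 147 CPM of *Fos* against 666 to 1200 in the other *KT* libraries, 348 of *Egr1* against 1120 to 2360 and 259 of *Jun* against 811 to 1140. Calls that gene lists gained or lost without *KT* replicate 1 or without non-restored replicate 8 are given beside the lists.

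**Figure D1:**
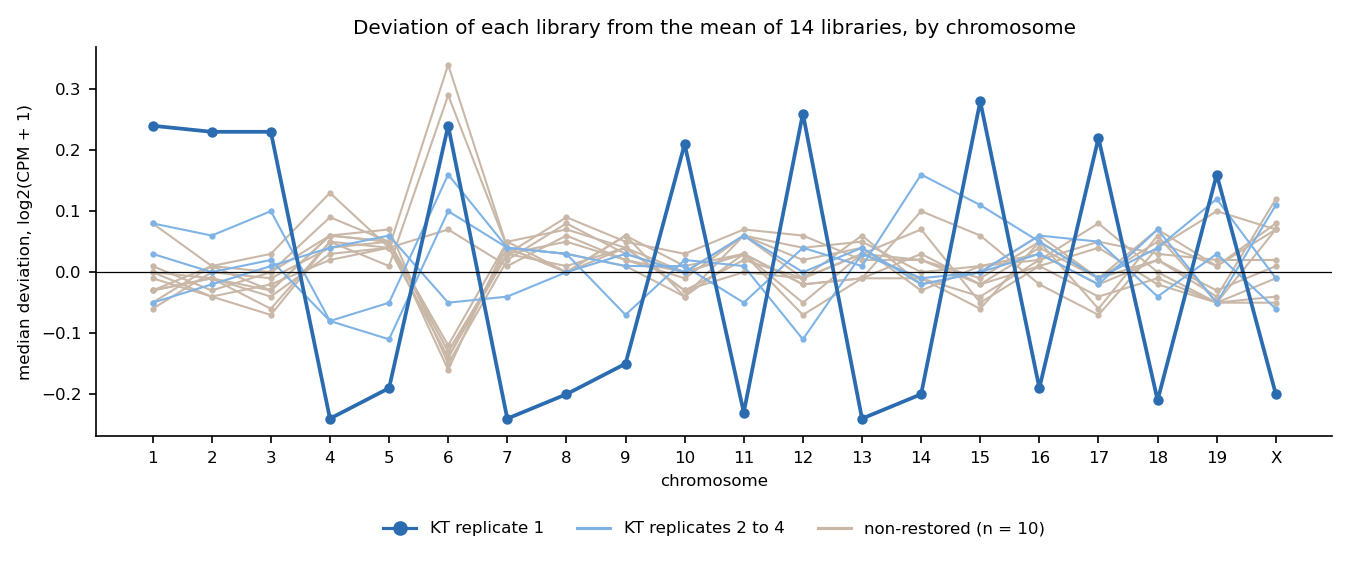
Median deviation of the genes of each chromosome from the mean of the 14 libraries (vertical axis, log2 units) for each chromosome (horizontal axis), with 1 line per library and *KT* replicate 1 in bold. *KT* replicate 1 lay 0.15 to 0.28 from 0 on every chromosome, in either direction, while the other 13 libraries lay between -0.11 and 0.16 on all but chromosome 6.

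The trapped gene was close to absent from every non-restored library. *Stk11* (chromosome 10, 80115803 to 80130682 of GRCm38, plus strand) stood at 19.2, 16.6, 27.2 and 26.4 CPM in *KT* replicates 1 to 4, from 20 to 67 reads. In the 10 non-restored libraries its lowest, median and highest levels were 0, 0.371 and 1.07 CPM, from 0 to 2 reads. The groups did not overlap, and with all 10 non-restored libraries at or under the floor the level was at least 18.8-fold lower (adjusted p = 6.58e-10). A two-sided exact permutation test on log2 CPM, with 2 counts added to each library, gave p = 0.000999, the smallest that 4 against 10 libraries can give. Both arms showed the loss, with differences on that scale of -4.17 in the vehicle arm and -4.90 in the tamoxifen arm against the same 4 *KT* libraries. The added counts are worth less CPM in deeper libraries, so these differences also depend on depth. *Stk11* in tumors of the same age after FLPo-driven restoration stood at 15.7 ± 3.54 CPM (SD, n = 7), with a range of 11.6 to 22.3. Restored replicates 6 and 7, at 17.7 and 22.3 CPM, lay within the *KT* range, and the other restored libraries lay below every *KT* library.

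Of 12636 tested genes 741 (5.86%) were called changed. In non-restored tumors 301 (2.38%) were higher, 144 of them by more than 1 log2 unit, and 440 (3.48%) were lower, 260 of them by more than 1. The median log2 difference of all tested genes was 0.03 and 53.1% were positive. Counts of called members in the gene lists below are to be read beside the 5.86% of all genes called. In 488 genes (3.86%) no non-restored library overlapped any *KT* library in CPM, and 375 of these were called. With each library left out in turn, *KT* replicate 1 gave the fewest calls, 340, of which 323 were among the 741, *KT* replicates 3 and 4 gave 418 and 459, and non-restored replicate 8 gave the most, 951. On the chromosomes where *KT* replicate 1 ran high, 80 calls were higher and 286 lower (78.1% lower), and on those where *KT* replicate 1 ran low 218 were higher and 150 lower (40.8% lower). Without *KT* replicate 1 the shares were 74.7% and 55.6%. Both arms, each tested alone, called 203 of the 741. All 741 kept their direction in each of the 25 alternative settings that tested them. Among the 7 female non-restored and 2 female *KT* libraries alone, 132 genes were called, and a test for a different effect in each sex called 0 of 11572 genes (edgeR; 1047 at an unadjusted p under 0.05; 61 with DESeq2). Of the 91 called genes named by rank or as members of gene lists, 55 were called whichever library was left out and 36 were not. Those 36 had adjusted p-values of 0.00527 or more, and 18 of them were lost only without a *KT* library, while the other 18, among them *Lyz2*, *H2-Eb1*, *Il34*, *Mcm7*, *Sdhc*, *Gstm1* and *Gstm2*, were also or instead lost without some non-restored library.

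Of the genes higher in non-restored tumors, those with the smallest adjusted p-values are described first. *Ptprn*, which encodes the IA-2 transmembrane protein of dense-core secretory vesicles (chromosome 1, 75247027 to 75264502, minus strand), stood at 16.5, 11.6, 7.72 and 23.5 CPM in *KT* replicates 1 to 4 and at 68.9, 175 and 448 (lowest, median, highest) in non-restored libraries. Every non-restored tumor lay above every *KT* tumor, with a difference of 3.88 ± 0.447 (SE; adjusted p = 2.1e-05). *Stc1*, the secreted glycoprotein stanniocalcin 1 (chromosome 14, 69029238 to 69041804, plus strand), was at 1.37, 0, 2.84 and 0.48 CPM in *KT* and at 14.4, 52 and 261 in non-restored tumors (5.88 ± 0.901; adjusted p = 0.000457). *Itgb3*, the integrin β3 subunit that pairs with αv (chromosome 11, 104608000 to 104670476, plus strand), was at 11, 4.15, 6.1 and 3.36 CPM in *KT* and 16.8, 38.3 and 110 in non-restored tumors (2.95 ± 0.468; adjusted p = 0.000547). *Tpcn2*, a cation channel of endosomes and lysosomes (chromosome 7, 145186524 to 145284011, minus strand), was at 11, 9.14, 8.13 and 17.7 CPM in *KT* and 24.5, 39.4 and 56.5 in non-restored tumors (1.77 ± 0.257; adjusted p = 0.00023). Neither group overlapped the other for any of these genes, and each was called without *KT* replicate 1 and without non-restored replicate 8. The same held for the neuronal pentraxin *Nptx1* (2.27; *KT* 2.06 to 7.19, non-restored 14.1 to 34.8 CPM), the synaptic scaffold gene *Homer2* (3.10; 5.28 to 12.5 against 38.7 to 111), the caveolar coat gene *Cavin3* (3.02; 2.06 to 5.82 against 25.1 to 58), the Eph receptor gene *Ephb3* (1.08; 19.9 to 27.3 against 36.3 to 68.2), the phosphatase gene *Ptpre* (1.87; 8.15 to 16.6 against 23.3 to 61), the acyl-CoA thioesterase gene *Acot7* (2.31; 8.92 to 23.3 against 30.9 to 119) and the tubulin polyglutamylase gene *Ttll7* (1.21; 68 to 237 against 288 to 428). *Xylt1*, which starts glycosaminoglycan chains, was higher by 2.94 and the atypical cadherin gene *Celsr2* by 1.66, also without overlap, as was *Fam174b* (1.61).

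The largest folds upward belonged to genes that *KT* tumors hardly expressed. *Rbm24*, an RNA-binding regulator of splicing, did not exceed 0.831 CPM in *KT*, and its median was 52.1 CPM in non-restored tumors, where replicates 8 and 4 were low, at 0.696 and 5.57, and the other 8 lay at 39.1 to 76.9 (at least 24.9-fold higher; adjusted p = 0.00187). *Enpp2*, which encodes the lysophospholipase autotaxin, was at least 19.0-fold higher (median 17.3 CPM; adjusted p = 0.0213) and the inositol transporter gene *Slc2a13* at least 10.5-fold (median 16.1 CPM; adjusted p = 0.0109). *Cap2*, an actin-regulating protein, was at 3.36 to 5.82 CPM in *KT*, and in non-restored tumors replicate 8 alone, at 0.464, lay below that while the other 9 lay at 14.7 to 227 (4.62 ± 1.02; adjusted p = 0.00978). *Fst*, the activin antagonist follistatin, reached 565 CPM in a non-restored tumor whose group had a median of 21.7 (5.66 ± 1.63; adjusted p = 0.0436), and *Rasgrp3*, a RAS exchange factor, reached 170 CPM at a median of 12.9 (4.59 ± 1.30; adjusted p = 0.0397). These last values varied most between non-restored tumors. Without *KT* replicate 1, *Enpp2*, *Fst* and *Rasgrp3* were no longer called (adjusted p = 0.0736, 0.134 and 0.128). *Enpp2* was also lost without *KT* replicate 3 or 4 (0.0719 and 0.0756), *Fst* and *Rasgrp3* without any of the *KT* libraries and without some non-restored libraries, *Rasgrp3* without replicate 8 among them (0.0516).

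The genes lower in non-restored tumors with the smallest adjusted p-values included several metabolic enzymes and the receptor *Ros1*. *Sord*, sorbitol dehydrogenase of the polyol pathway (chromosome 2, 122234749 to 122265340, plus strand), stood at 62.5, 52.3, 48 and 51.3 CPM in *KT* and at 4.73, 7.55 and 14.2 (lowest, median, highest) in non-restored tumors, a difference of -2.74 ± 0.224 (adjusted p = 7.2e-08). The highest non-restored tumor was thus far below the lowest *KT* tumor. *Apoc1*, an apolipoprotein (chromosome 7, 19689481 to 19692660, minus strand), was at 373, 154, 352 and 333 CPM in *KT* and 6.26, 26.3 and 43.7 in non-restored tumors (-3.58 ± 0.331; adjusted p = 1.1e-06). *Apoe*, its neighbor in the apolipoprotein cluster, was at 22.1 to 66.7 CPM in *KT* and 0 to 17.4 in non-restored tumors (-3.20 ± 0.578; adjusted p = 0.00199). Both were called whichever library was left out. *Ros1*, a receptor tyrosine kinase (chromosome 10, 52045721 to 52195244, minus strand), was at 308, 179, 288 and 377 CPM in *KT* and 32.6, 63.2 and 90.2 in non-restored tumors (-2.24 ± 0.245; adjusted p = 9.46e-06). *Prdx6*, a peroxiredoxin that also hydrolyzes surfactant phospholipids, was lower by a smaller margin, 345 to 464 against 154 to 227 CPM, with little spread in either group (-1.13 ± 0.118; adjusted p = 4.08e-06).

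**Figure D2:**
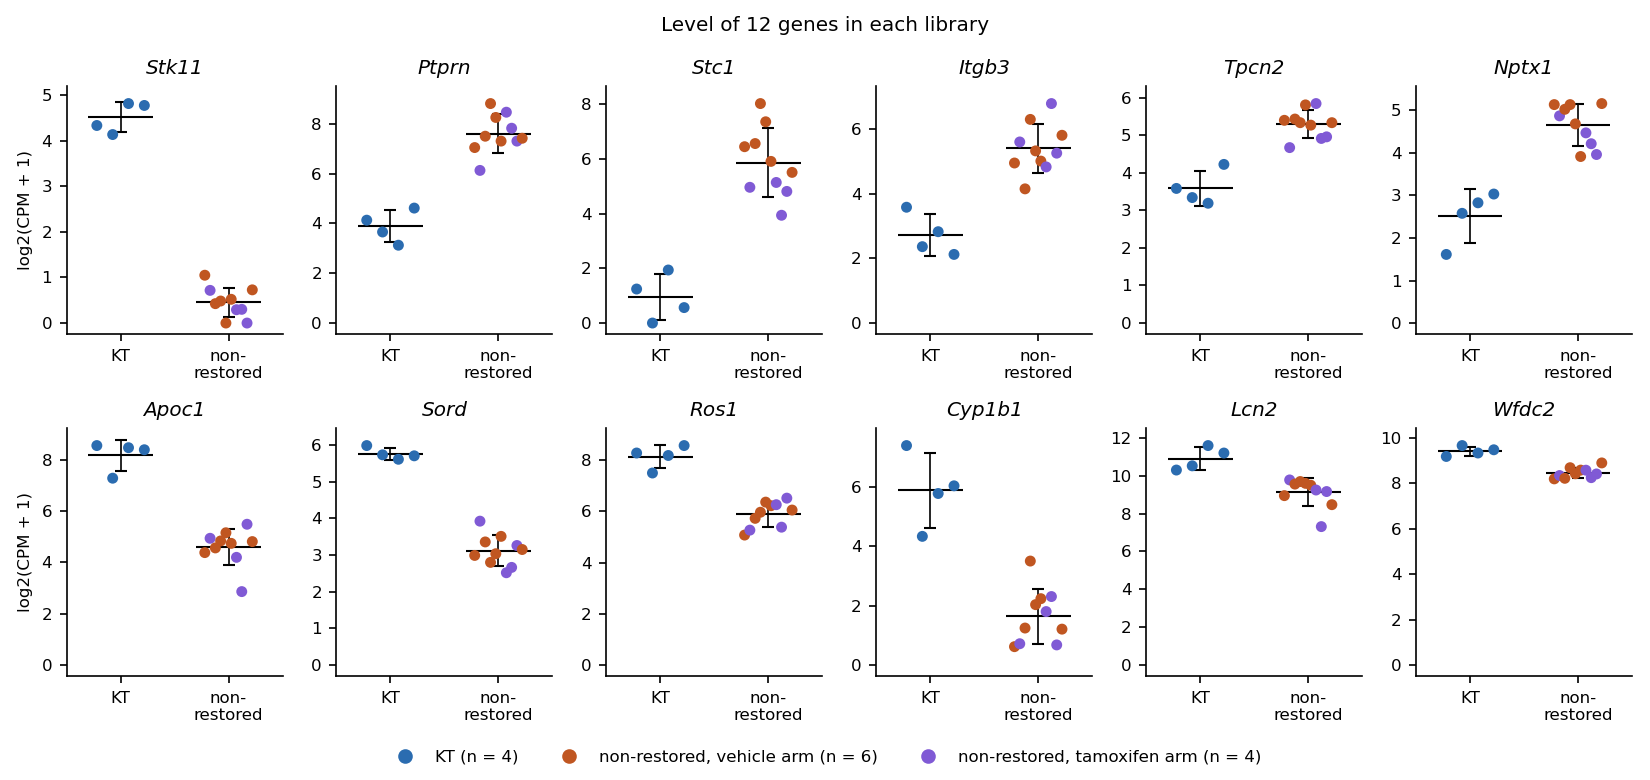
Level of 12 genes as log2(CPM + 1) (vertical axis) in each of the 4 *KT*, 6 vehicle-arm and 4 tamoxifen-arm non-restored libraries (points, colored by arm), with bars at the mean ± SD of each group. *Stk11*, *Sord*, *Apoc1*, *Ros1*, *Cyp1b1*, *Lcn2* and *Wfdc2* lay lower and *Ptprn*, *Stc1*, *Itgb3*, *Tpcn2* and *Nptx1* higher in every non-restored library than in any *KT* library.

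The remaining genes of that group comprised the lipid and xenobiotic enzymes *Cyp1b1* (*KT* 19.1 to 166, non-restored 0.535 to 10.3 CPM; -4.70 ± 0.526), *Cers6*, a ceramide synthase (64.8 to 185 against 7.17 to 32.2; -2.75), and *Gsta3*, a glutathione transferase (24.1 to 103 against 0.343 to 5.26; -4.85). *Slc23a1*, a vitamin C transporter, was lower by 3.38 log2 units in the same direction (23 to 35.7 against 1.03 to 6.52 CPM), and *Mylk*, myosin light-chain kinase, fell by 1.42 on the log2 scale (152 to 249 against 43.9 to 104). *Fkbp11*, a prolyl isomerase of the endoplasmic reticulum, fell by 2.16 on the log2 scale. In each of these the groups did not overlap. Large folds downward were also called for *Slc40a1*, the iron exporter ferroportin (8.31 to 94.7 against 0 to 5.15 CPM; -4.70 ± 0.616; adjusted p = 9.01e-05), for *Cd177*, a surface glycoprotein best known from neutrophils (31.6 to 267 against 0 to 9.55; -5.48 ± 0.703; adjusted p = 7.81e-05), and for *Spink5*, a serine protease inhibitor (7.55 to 27.4 against 0 to 3.86; -5.81 ± 0.962; adjusted p = 0.000842). The other neutrophil markers were near 0 beside *Cd177*, with a summed level of 5.82 to 12.4 CPM in *KT* and 1.31 to 14.3 in non-restored tumors. *Npy2r*, a neuropeptide Y receptor gene, was at 43.2, 2.49, 40.6 and 11 CPM in *KT* and at most 3.29 in non-restored tumors (-5.88 ± 1.50; adjusted p = 0.0237), a call that was lost without *KT* replicate 1 or 3 (adjusted p = 0.0778 and 0.0729).

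Apart from *Stk11* itself, few transcripts of the LKB1 pathway passed the test. Of the genes of the LKB1 complex, *Strada*, *Stradb*, *Cab39* and *Cab39l* differed by 0.00, -0.29, 0.00 and 0.19 log2 units, and 0 of these 4 were called. None of the 6 tested AMPK subunits was called either, the nearest being *Prkag2*, a regulatory γ subunit (-0.74; adjusted p = 0.0885). Of 9 tested AMPK-related kinases 1 was called. *Sik1*, the salt-inducible kinase whose own gene is a CREB target, stood at 38.4, 78.9, 76 and 58 CPM in *KT* and at 85, 115 and 206 in non-restored tumors, without overlap (0.99 ± 0.226; adjusted p = 0.0112, and 0.056 without *KT* replicate 1). *Sik2* differed by 1.02 (adjusted p = 0.0675) and *Sik3* by -0.06, and *Mark2* and *Mark3* by at most 0.03 in size.

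Transcripts of the CREB coactivators and their partners were not called, and a few CREB target genes were. In all, 0 of 9 regulators (*Crtc1*, *Crtc2*, *Crtc3*, *Creb1*, *Creb3l1*, *Crem*, *Atf1*, *Crebbp* and *Ep300*) passed the test, with *Crem* at 0.49 (adjusted p = 0.209). Of 13 tested CREB target genes 3 were higher (23.1%, beside 2.38% of all genes) and 0 lower. The list median was 0.46 beside 0.03 over all genes. The vehicle arm alone called 3 of the list and the tamoxifen arm alone 0. *Pde10a*, a cyclic nucleotide phosphodiesterase, was at most 0.831 CPM in *KT* and had a median of 17 CPM in non-restored tumors (at least 9.64-fold higher; adjusted p = 0.00978). *Pde4d*, a cAMP phosphodiesterase, stood at 39.8 to 68.1 CPM in *KT* and 64.3 to 132 in non-restored tumors (0.69 ± 0.177; adjusted p = 0.0234), and *Dusp1*, a phosphatase of MAP kinases, at 118 to 475 and 310 to 924 (1.14 ± 0.291; adjusted p = 0.0226), with the 118 in *KT* replicate 4, the library low for immediate early genes. All 3 overlapped between groups, *Pde10a* through non-restored replicate 8 alone, at 0.464 CPM, with replicate 4 next at 3.18. Without *KT* replicate 1 only *Pde10a* was called. Without *KT* replicate 4 the adjusted p was 0.0797 for *Pde4d* and 0.0791 for *Dusp1*, and *Pde4d* was also lost without *KT* replicate 3 (0.0532). *Nr4a1*, *Per1* and *Fos*, which respond to CREB and also to other stimuli, differed by -0.06, -0.27 and 1.06 (adjusted p = 0.0998 for *Fos*, and 0.0469 without non-restored replicate 8).

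Promoters were searched for the CRE, TGACGTCA, and for its core, TGACG, on both strands, in the RefSeq windows of 300 bases from 250 before to 50 after a start. A window was held for 9128 of the 12636 tested genes but for only 213 of the 301 higher genes, under the 80% needed for a comparison, so the check was void for these and is given as a description. The full CRE lay in 3.68% of all these promoters, in 3.29% of those of higher genes and in 2.24% of those of lower genes (357 of 440 with a window). The core lay in 36.2%, 35.2% and 29.7%. The bases before the start are shown for 3 genes picked after the matches were known, to show what a match looks like, *Ptprn* with a pair of cores and *Dusp1* and *Ldha* (a glycolytic gene described further on) with a full CRE, at chr1:75264209-75264458 (minus strand), chr17:26508473-26508722 (minus strand) and chr7:46845554-46845803 (plus strand) of GRCm38.p6, with the matches in capitals:
*Ptprn*: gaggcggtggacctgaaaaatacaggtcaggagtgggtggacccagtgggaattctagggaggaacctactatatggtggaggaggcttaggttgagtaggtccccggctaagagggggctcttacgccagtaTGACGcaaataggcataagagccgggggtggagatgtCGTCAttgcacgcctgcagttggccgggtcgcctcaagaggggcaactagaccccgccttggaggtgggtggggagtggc
*Dusp1*: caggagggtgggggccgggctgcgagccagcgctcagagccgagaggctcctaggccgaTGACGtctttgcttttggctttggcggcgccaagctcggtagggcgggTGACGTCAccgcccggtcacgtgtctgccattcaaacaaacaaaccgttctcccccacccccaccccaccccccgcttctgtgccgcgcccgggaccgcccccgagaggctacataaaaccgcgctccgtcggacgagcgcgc
*Ldha*: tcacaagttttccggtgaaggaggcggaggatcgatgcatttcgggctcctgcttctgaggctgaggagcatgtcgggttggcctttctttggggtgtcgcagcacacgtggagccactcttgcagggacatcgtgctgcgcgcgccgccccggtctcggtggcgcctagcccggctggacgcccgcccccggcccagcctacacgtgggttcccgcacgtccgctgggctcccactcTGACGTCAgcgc
*Ptprn* and *Ldha* have another start each in RefSeq, and the window of that start held no match in *Ptprn* and a core alone in *Ldha*. Other genes described here also held matches, among them *Mitf*, which was lower, with a full CRE, and *Stk11*, *Cers6*, *Ephb3*, *Fkbp11*, *Ptpre*, *Rbm24*, *Rps13* and *Slc2a13* with a core. *Pde4d* and *Pde10a* held neither match in their windows. A match describes these letters only.

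Among the genes of the secretory vesicle, *Ptprn* was the 1 called of 4 tested. *Ptprn2*, its paralog, differed by -0.19, the carboxypeptidase gene *Cpe* by 2.30 (adjusted p = 0.335) and the vesicle-priming gene *Cadps2* by -1.14 (adjusted p = 0.091). The other 14 listed neuroendocrine genes were too low to test, and *Chga*, *Scg3* and *Cadps* were among those listed at 0 in all 14 libraries.

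Genes of ATII identity mostly had negative differences, but few passed the test. Of 23 tested, 22 had a negative difference, with a median of -0.65 beside 0.03 over all genes. Of these 3 were called lower (13%, beside 3.48% of all genes). The vehicle arm alone called 8 of the 23, beside 653 of 12284 genes. The tamoxifen arm alone, with fewer libraries, called 0, beside 280 of 12213 genes. The arms were not tested against each other. *Lyz2*, lysozyme, was at 12700, 28900, 19400 and 18300 CPM in *KT* and at 601, 5730 and 11000 in non-restored tumors, the lowest being replicate 8 (-1.73 ± 0.499; adjusted p = 0.0431). Its groups did not overlap, yet it was called in 10 of 25 alternatives and was lost without any of the *KT* libraries (adjusted p = 0.0729, 0.126, 0.0987 and 0.0817 without replicates 1 to 4). *Pon3*, a paraoxonase, was lower (329 to 360 against 71.2 to 278 CPM; -0.79; adjusted p = 0.0263), as was *Rab27a*, a GTPase of regulated secretion (103 to 212 against 51.3 to 115; -0.93; adjusted p = 0.00618). The surfactant genes were not called, with -0.46 for *Sftpc*, -0.36 for *Sftpb*, -1.17 for *Sftpa1* and -0.68 for *Sftpd* (adjusted p from 0.162 to 0.613). *Chil1*, a chitinase-like secreted protein, was near the threshold (-1.65; adjusted p = 0.0546). *Pon3* was likewise lost without any of the *KT* libraries (adjusted p from 0.0524 to 0.0915) and *Rab27a* without *KT* replicate 3 (0.0507). Without *KT* replicate 1, only *Rab27a* was called, and without non-restored replicate 8 the calls were *Lyz2*, *Pon3*, *Rab27a*, *Chil1* and *Dram1*. The summed level of the list was 73000 to 148000 CPM in *KT* and 9420 to 102000 in non-restored tumors, where replicate 8 was the lowest.

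The list of host-defence genes of the alveolar epithelium shares some members with the ATII list and held the most stable calls among alveolar genes. *Lcn2*, the iron-sequestering lipocalin 2 (chromosome 2, 32384633 to 32388252, minus strand), was at 1260, 1470, 3090 and 2350 CPM in *KT* and at 158, 664 and 877 in non-restored tumors (-1.74 ± 0.307; adjusted p = 0.00159). *Wfdc2*, a secreted protein with whey acidic protein domains (chromosome 2, 164562413 to 164568510, plus strand), was at 575, 802, 639 and 705 CPM in *KT* and at 290, 338 and 472 in non-restored tumors (-0.95 ± 0.129; adjusted p = 0.000105). Neither overlapped between groups and both were called in all 25 alternatives. Of 12 tested members 3 were lower (25%, beside 3.48% of all genes), *Lyz2* included, with a median of -1.03, and 2 without *KT* replicate 1. *Hp*, haptoglobin, had a difference of 1.22 (adjusted p = 0.0657, and 0.00399 without non-restored replicate 8). *Bex4*, of the small brain-expressed X-linked family, was at 21.3 to 45.1 CPM in *KT* and 0 to 5 in non-restored tumors (-4.24 ± 0.846; adjusted p = 0.00472). It was the 1 called of 6 tested Bex and Tceal genes, all 6 of which had negative differences (median -1.48), among them *Bex1* at -2.98 (adjusted p = 0.0509).

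C/EBP factors, the transcriptional regulators of mature ATII genes, showed no called difference in their own transcripts. *Cebpa* differed by -0.33 (adjusted p = 0.447), *Cebpb* by 0.24, *Cebpd* by 0.25, *Cebpg* by 0.01 and *Ddit3* by 0.17, so that 0 of 5 were called. Of 12 tested lung lineage factors, the pioneer factor gene *Foxa2* alone was higher (48.9 to 66.5 against 65 to 99.5 CPM; 0.49 ± 0.137; adjusted p = 0.0372), a call lost without *KT* replicates 1, 3 or 4 (adjusted p = 0.117, 0.0956 and 0.152) and without 4 of the non-restored libraries. *Nkx2-1*, which specifies lung epithelium, was at 0.48 (adjusted p = 0.352, but 0.60 and 0.0483, and so called higher, without non-restored replicate 8), the gastric and hepatic factor gene *Hnf4a* at 3.21 (adjusted p = 0.345) and *Id2* at -1.05 (adjusted p = 0.089).

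A few ATI genes and genes of the transitional alveolar state were higher. Of 16 tested transitional genes 15 had positive differences (median 0.68, beside 0.03 and 53.1% positive over all genes) and 3 were higher (18.8%, beside 2.38% of all genes). *Cdkn1a*, the p21 inhibitor of cyclin-dependent kinases, was at 174, 168, 212 and 120 CPM in *KT* and at 254, 304 and 488 in non-restored tumors, without overlap (1.00 ± 0.190; adjusted p = 0.00269). *Anxa3*, an annexin, was at 260 to 448 against 451 to 893 CPM (0.66; adjusted p = 0.0247), and *Sfn*, the 14-3-3σ gene, at 2.06 to 9.75 against 5.15 to 29.2 (1.41; adjusted p = 0.047). *Cdkn1a* alone was called without *KT* replicate 1. *Anxa3* was also lost without *KT* replicate 3 (adjusted p = 0.0793) and *Sfn* when most of the libraries were left out singly (up to 0.174). The keratin genes *Krt8*, *Krt18* and *Krt19* had differences of 0.70, 0.60 and 1.41 and were not called. Of 19 tested ATI genes 3 were called (15.8%, beside 5.86% of all genes). The membrane protein gene *Emp2* (251 to 537 against 533 to 992 CPM; 0.95; adjusted p = 0.00475) and the claudin gene *Cldn18* (964 to 1440 against 1440 to 2310; 0.58; adjusted p = 0.0234) were higher, and *Pdpn*, podoplanin, was lower (11.6 to 66.2 against 0 to 16.5; -2.59; adjusted p = 0.0269). The ATI list thus did not move in a single direction, its median was 0.56 (0.42 with *Igfbp2*, which *KT* tumors hardly expressed, at its bound), and without *KT* replicate 1 *Emp2* alone was called. *Cldn18* was also lost without *KT* replicate 3 (adjusted p = 0.0599) and *Pdpn* without *KT* replicate 3 or 4 (0.0652 and 0.108). *Ager* and *Hopx*, markers of mature ATI cells, were at -0.34 and 0.42.

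**Figure D3:**
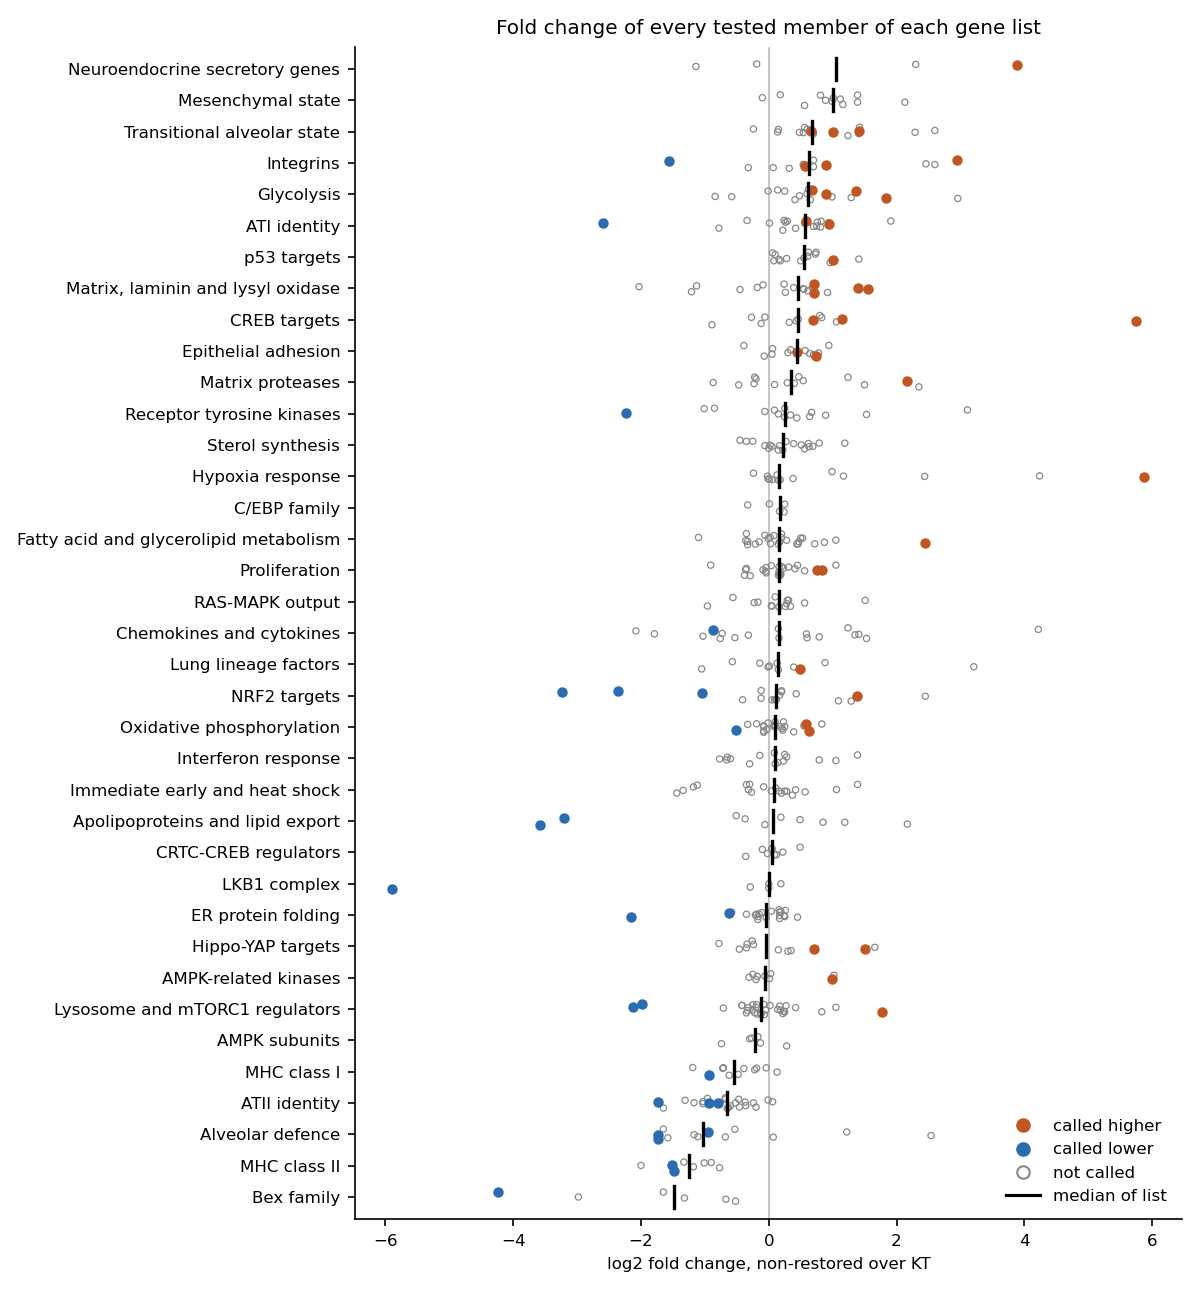
Log2 difference, non-restored minus *KT* (horizontal axis), of each tested member (points) of the gene lists with at least 4 tested members (rows), with called members colored and a bar at each list's median. Medians ran from -1.48 in the Bex family and -1.25 in MHC class II to 1.0 in the mesenchymal list and 1.06 in the neuroendocrine list, and called members lay on either side of 0 in the integrin, ATI, NRF2, lysosomal and oxidative phosphorylation lists.

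MHC class II genes, which ATII cells express, had negative differences throughout. All 8 tested members had negative differences (median -1.25) and 2 were called lower (25%, beside 3.48% of all genes). The vehicle arm alone called 4 of the 8 and the tamoxifen arm alone 1. *H2-Eb1*, a class II β chain, was at 153, 184, 220 and 190 CPM in *KT* and at 4.18, 76.1 and 102 in non-restored tumors (-1.51 ± 0.424; adjusted p = 0.0379). *H2-DMa*, which loads peptide, was at 59 to 88.6 against 2.32 to 37.7 CPM (-1.48 ± 0.346; adjusted p = 0.0135). The groups did not overlap in either gene, and the lowest value in both was that of non-restored replicate 8. Without that library 5 genes were called (*H2-Aa*, *H2-Ab1*, *H2-Eb1*, *H2-DMa* and *H2-DMb1*), and without *KT* replicate 1 there were 0 (edgeR adjusted p = 0.0819 for *H2-Eb1* and 0.0654 for *H2-DMa*). *H2-DMa* was also lost without *KT* replicate 3 (0.0536) and *H2-Eb1* without any *KT* library (up to 0.117). The summed level was 2360 to 4100 CPM in *KT* and 176 to 2390 in non-restored tumors. The immune marker sum, 1.66 to 4.88 CPM in *KT* and 2 to 47 in non-restored tumors, was not lower beside it. Among 12 class I genes, *H2-T23*, a nonclassical molecule, was lower (41.7 to 60.6 against 17.6 to 33.5 CPM; -0.93 ± 0.164; adjusted p = 0.00142) in all 25 alternatives, while *H2-K1* and *H2-D1* differed by -0.19 and -0.22. Of 15 tested interferon-response genes 0 were called (median 0.10), and *Ifit2* was called higher without non-restored replicate 8 (1.54; adjusted p = 0.0374). Among 18 chemokine and cytokine genes *Il34* was lower (12.4 to 18.2 against 3.94 to 12.6 CPM; -0.88; adjusted p = 0.0461), though not without any of the *KT* libraries (up to 0.135), and *Cxcl1* and *Cxcl15* were at -1.79 and -1.03 (adjusted p = 0.121 and 0.112), the former called lower without non-restored replicate 8 (-2.35; adjusted p = 0.0214).

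**Figure D4:**
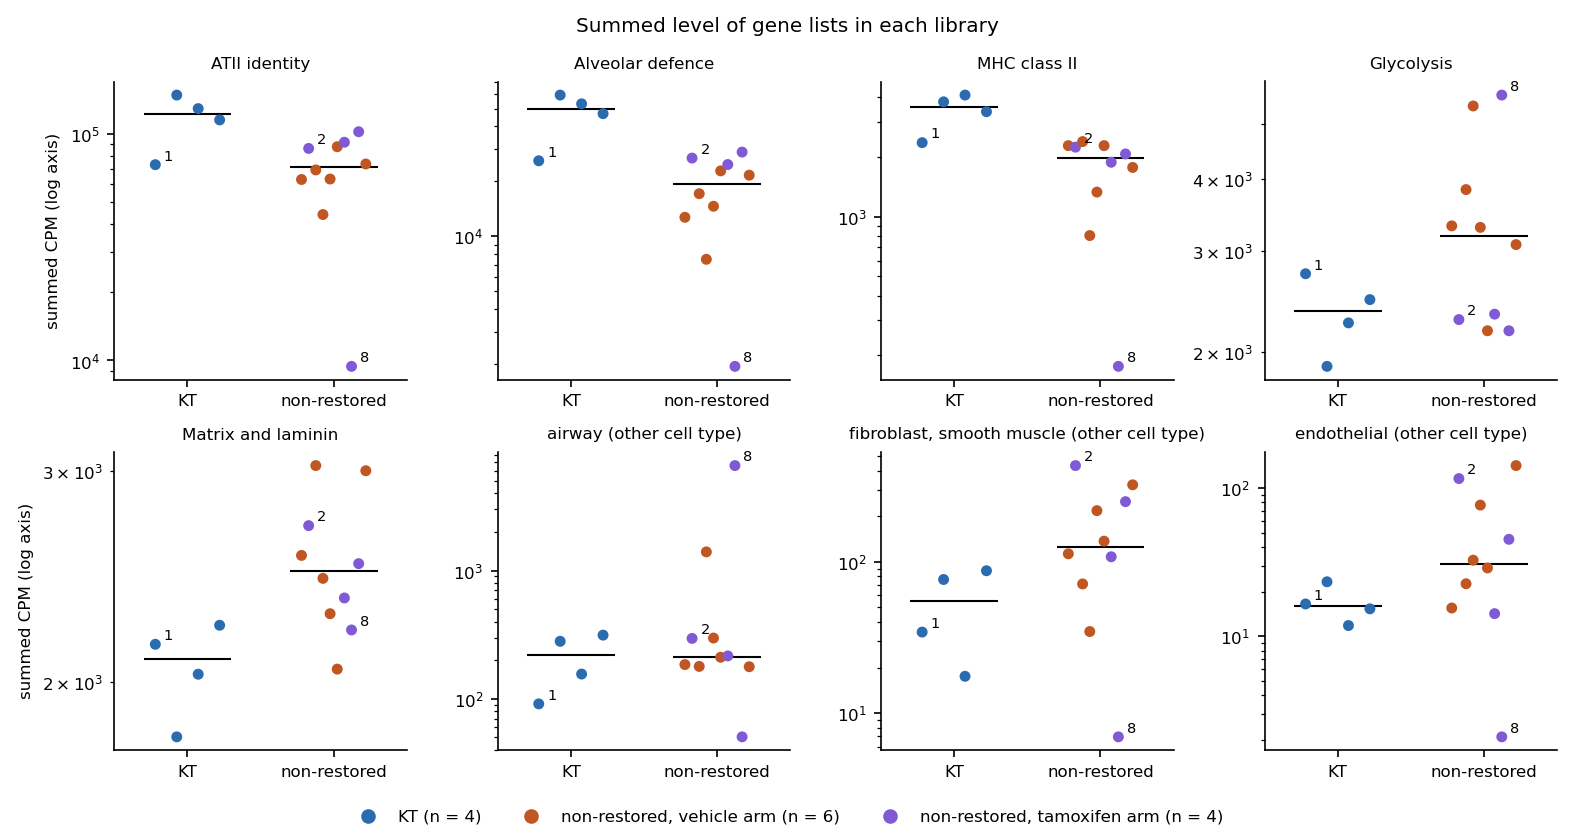
Summed CPM (vertical axis, log scale) of 8 gene lists in each *KT* and non-restored library (points), with a line at the group median and numbers that mark *KT* replicate 1 and non-restored replicates 2 and 8. Replicate 8 was lowest in the ATII and MHC class II sums (9420 and 176 CPM) and highest in the airway sum (6600 CPM, 6580 of it *Muc5b*). Replicate 2 was highest in the fibroblast and smooth muscle sum (433 CPM).

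Several glycolytic enzymes were higher in non-restored tumors. Of 17 tested genes 14 had positive differences (median 0.62, beside 0.03 and 53.1% positive over all genes) and 4 were called, all higher (23.5%, beside 2.38% of all genes). *Pfkp*, the platelet-type phosphofructokinase, was at 8.92, 4.98, 13.4 and 12 CPM in *KT* and at 19.2, 34.6 and 59.9 in non-restored tumors (1.83 ± 0.330; adjusted p = 0.00182). *Eno1*, enolase, was at 57, 53.2, 54.5 and 79.1 CPM in *KT* and at 85, 130 and 316 in non-restored tumors (1.37 ± 0.295; adjusted p = 0.00743). Neither overlapped, and these were the 2 still called without *KT* replicate 1. *Aldoa* (179 to 282 against 260 to 752 CPM; 0.90; adjusted p = 0.0364) and *Ldha* (638 to 791 against 774 to 1620; 0.67; adjusted p = 0.0375), aldolase and lactate dehydrogenase, overlapped between groups and were lost without any of the *KT* libraries (up to 0.111 and 0.123). *Hk2*, hexokinase 2, and *Pfkm*, the muscle-type phosphofructokinase, had differences of -0.58 and -0.84 and were not called, and *Hk2* was called lower without non-restored replicate 8. *Slc2a1*, the glucose transporter GLUT1, was at 0.99 (adjusted p = 0.244). Of 14 tested hypoxia-response genes *Stc1* alone was called (median 0.17), with *Vegfa* at 0.13 and *Egln3* at 0.01. Of 23 oxidative phosphorylation genes 3 were called (13%, beside 5.86% of all genes), all by less than 1 log2 unit. *Sdhb* and *Cox7a2* were higher (0.59 and 0.63), *Sdhc* was lower (-0.51), and the list's median was 0.10. None of these 3 calls held when *KT* replicate 3 or 4 was left out (adjusted p from 0.0708 to 0.126), and *Cox7a2* alone was called without *KT* replicate 1.

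Redox and lipid genes moved in both directions. Among 18 tested NRF2 target genes 4 were called (22.2%, beside 5.86% of all genes). The glutathione transferase genes *Gstm1* (57.3 to 253 against 9.09 to 51.5 CPM; -2.36; adjusted p = 0.0372) and *Gstm2* (-3.23; adjusted p = 0.0385) and the heme oxygenase gene *Hmox1* (66.2 to 126 against 17.9 to 54.3; -1.04 ± 0.215; adjusted p = 0.00527) were lower. *Gclc*, the catalytic subunit of glutamate-cysteine ligase, was higher (145 to 363 against 136 to 793 CPM; 1.38; adjusted p = 0.0454), though not without *KT* replicates 2, 3 or 4 (up to 0.151) or 7 of the non-restored libraries, replicate 8 among them (0.0532). *Gstm1* and *Gstm2* were not called without *KT* replicates 1, 3 or 4 (up to 0.164 and 0.204), and *Hmox1* was lost only without *KT* replicate 3 (0.0532). *Gpam*, which begins glycerolipid synthesis, was the 1 called of 26 fatty acid and glycerolipid genes (4.8 to 11 against 13.9 to 66.9 CPM; 2.45 ± 0.451; adjusted p = 0.0023). Of 19 sterol synthesis genes 0 were called, with a median of 0.22 (0.03 without *KT* replicate 1). Of 10 tested genes of lipid export, *Apoc1* and *Apoe* were those called, both lower (20%, beside 3.48% of all genes).

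Integrins and basement membrane genes held most of the calls among adhesion genes. Beside *Itgb3*, the αv subunit gene *Itgav* was higher (346, 322, 354 and 293 CPM in *KT*; 368, 639 and 738 in non-restored tumors; 0.90 ± 0.165; adjusted p = 0.00193), and so was the β1 subunit gene *Itgb1* (280 to 432 against 430 to 701; 0.56 ± 0.129; adjusted p = 0.0112, and 0.055 without *KT* replicate 1). *Itga1*, a collagen-binding α subunit, was lower (148, 37.4, 126 and 126 CPM against 13.5, 38.5 and 59.2; -1.56 ± 0.316; adjusted p = 0.00493), and *KT* replicate 2 lay within the non-restored range. Thus 4 of 12 tested integrin genes were called (33.3%, beside 5.86% of all genes), 3 of them higher. Of 18 tested matrix genes 4 were higher (22.2%, beside 2.38% of all genes) and 0 lower (median 0.46), although the collagen XVIII gene *Col18a1* was called lower without non-restored replicate 8 (-2.50; adjusted p = 0.0207, against 0.078 with it). The 4 were the laminin β2 gene *Lamb2* (28.4 to 37.4 against 44.8 to 60.5 CPM; 0.71), the perlecan gene *Hspg2* (20.3 to 46.7 against 40.9 to 119; 1.40), the nidogen gene *Nid1* (4.81 to 8.31 against 4.18 to 32.9; 1.56) and the agrin gene *Agrn* (70.3 to 94.7 against 101 to 162; 0.71). *Hspg2* was not called without *KT* replicate 3 or 4 (adjusted p = 0.0565 and 0.053) and *Nid1* not without *KT* replicates 1, 3 or 4 (up to 0.129). *Mmp14*, the membrane-type metalloprotease, was at 23.3, 15.8, 19.1 and 15.3 CPM in *KT* and at 41.4, 70.9 and 137 in non-restored tumors (2.16 ± 0.367; adjusted p = 0.00113) and was the 1 called of 14 tested proteases and inhibitors. Of 12 mesenchymal genes 0 were called (median 1.00), with *Vim* at 0.89 and *Zeb1* at 1.01, and *Tgfbi*, a secreted matrix protein gene, was called higher without non-restored replicate 8 (adjusted p = 0.0229, against 0.179 with it). The fibroblast and smooth muscle marker sum was 17.5 to 87.3 CPM in *KT* and 6.96 to 433 in non-restored tumors and the endothelial sum 11.8 to 23.3 and 2.09 to 142, with 0 of 8 and 0 of 7 tested markers called. The median differences of these lists were 1.51 and 1.96 (1.49 and 1.31 with genes at the floor set to their bound), of the mesenchymal list's own order or above, and their part in the matrix results was not tested. Fewer cells of a type and less RNA per cell cannot be told apart in sorted bulk libraries.

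Of 14 tested epithelial junction genes 2 were called higher (14.3%, beside 2.38% of all genes) and 0 lower (beside 3.48% of all genes). The splicing factor gene *Esrp2* (56.5 to 74 against 88.9 to 125 CPM; 0.74 ± 0.137; adjusted p = 0.00221) and the tight junction gene *Tjp1* (287 to 410 against 406 to 626; 0.44; adjusted p = 0.0331) were higher, and *Cdh1*, E-cadherin, was at 0.64 (adjusted p = 0.0523, and 0.0456 without non-restored replicate 8). Of 12 Hippo and YAP genes 2 were called, both higher (16.7%, beside 2.38% of all genes). *Ajuba*, a LIM-domain adaptor, was higher (4.8 to 8.31 against 9.79 to 26.8 CPM; 1.51 ± 0.284; adjusted p = 0.00259), as was *Tead1*, a partner of YAP (107 to 200 against 176 to 362; 0.71; adjusted p = 0.0397), while the usual YAP targets *Ctgf* and *Cyr61* were at 0.35 and -0.35. *Tjp1* and *Tead1* were not called without *KT* replicate 1 (adjusted p = 0.134 and 0.174) or *KT* replicate 3 (0.0634 and 0.099). *Tjp1* was also lost without *KT* replicate 4, and *Tead1* without *KT* replicate 2 and without non-restored replicates 1, 3, 4 and 10.

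Of 25 tested proliferation genes 2 were called (8%, beside 5.86% of all genes), *Rrm1*, a ribonucleotide reductase subunit (17.2 to 26.4 against 31.6 to 48.7 CPM; 0.75 ± 0.152; adjusted p = 0.00466), and *Mcm7* of the replicative helicase (5.49 to 9.14 against 7.96 to 16.5; 0.84; adjusted p = 0.0454, but not without *KT* replicates 1, 3 or 4, with up to 0.157). *Mki67* was at 0.16 and *Top2a* at 0.31. Of 15 p53 target genes, all with a positive difference (median 0.55), *Cdkn1a* was the 1 called. Of 15 RAS-MAPK output genes 0 were called (median 0.16) and *Dusp6* was at 0.28. Among 15 tested receptor tyrosine kinase genes *Ros1* was the 1 called, beside *Egfr* at 1.53 (adjusted p = 0.088) and *Fgfr2* at -1.01 (adjusted p = 0.0836, and 0.0187 without non-restored replicate 8). Immediate early and heat shock genes, which respond to tissue handling, had 0 of 20 called (median 0.08), or *Fos* alone without non-restored replicate 8. Of 31 lysosomal and mTORC1 genes 3 were called (9.68%, beside 5.86% of all genes). *Tpcn2* was higher, and the lysosomal transcription factor gene *Mitf* (31.7 to 56.1 against 1.19 to 17.6 CPM; -1.99) and the Rag GTPase gene *Rragd* (2.75 to 59.8 against 0.696 to 14.2; -2.13; adjusted p = 0.0375) were lower. *Mitf* lay at the threshold and was called in 4 of 24 alternatives, and *Rragd* was lost without *KT* replicate 2 or 3 (adjusted p = 0.186 and 0.15) and without 6 of the non-restored libraries. *Ddit4*, an inhibitor of mTORC1, was called higher without non-restored replicate 8 (0.94; adjusted p = 0.0173). Of 21 genes of protein folding in the endoplasmic reticulum 2 were called, both lower (9.52%, beside 3.48% of all genes). They were *Fkbp11* and *Sel1l* (-2.16 and -0.63), *Sel1l* not without *KT* replicate 1 or 3 (adjusted p = 0.0951 and 0.0532), with *Hspa5* at 0.17. Without *KT* replicate 1, *Xbp1* and *Herpud1* were called lower (-0.51 and -0.76; adjusted p = 0.038 and 0.0456).

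For some strongly called genes, the reads were divided differently between near-identical copies. *Rps13*, a ribosomal protein gene on chromosome 7, was lower in non-restored tumors (482, 495, 335 and 509 CPM in *KT* and 83.7 to 168 in non-restored tumors; -2.09 ± 0.154; adjusted p = 2e-08). Its processed copy *Rps13-ps1* on chromosome 8 was at 8.24, 14.1, 260 and 16.8 CPM in *KT* and 372 to 708 in non-restored tumors (2.54; adjusted p = 0.0175). Summed over *Rps13* and its copies, the level was 539 ± 42.9 CPM in *KT* (SD, n = 4) and 551 ± 121 in non-restored tumors (n = 10), a log2 ratio of 0.03. The gene and its copies therefore changed shares without a change in their sum beyond the spread of either group. For *Rps3a1* and its copies *Rps3a2* and *Rps3a3*, *KT* replicate 2, at 253 CPM of *Rps3a1*, was within the non-restored range of 203 to 360, and the other 3 *KT* libraries were at 1250 to 1890. Their sum was 1910 ± 428 CPM in *KT* and 1290 ± 230 in non-restored tumors, a log2 ratio of -0.57 beside -2.20 for *Rps3a1* alone.

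**Figure D5:**
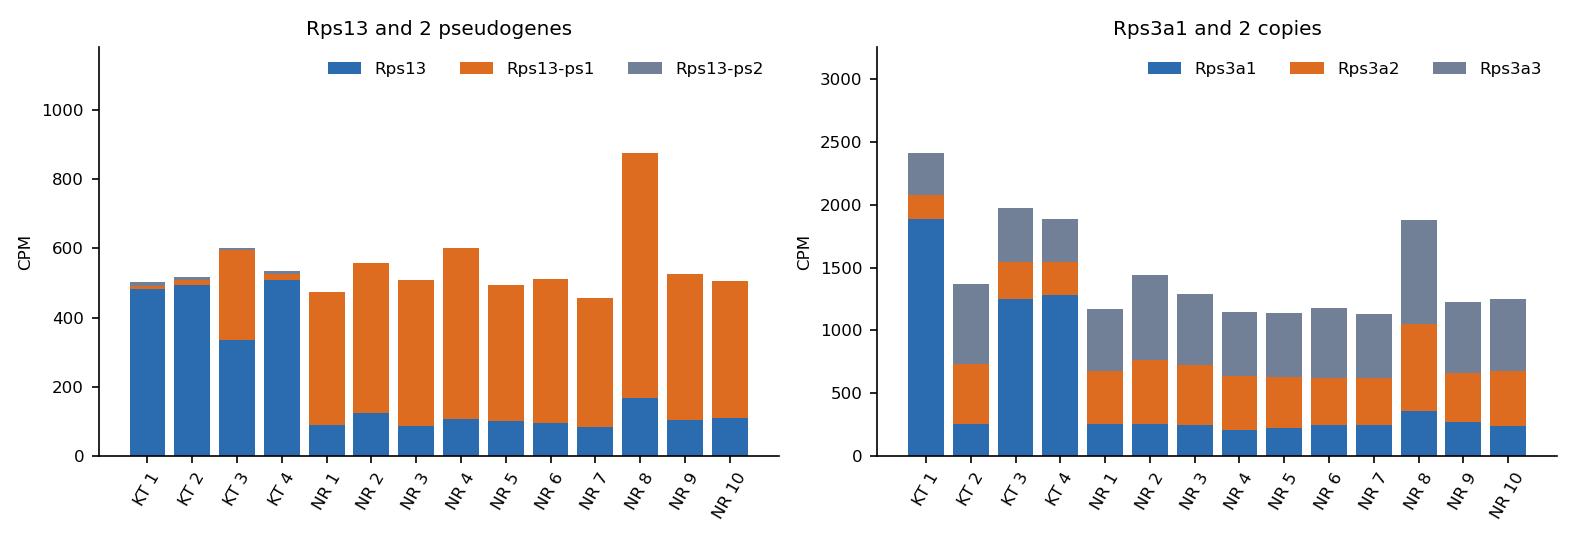
Stacked CPM (vertical axis) of *Rps13* and its copies and of *Rps3a1* and its copies in each *KT* and non-restored library (bars). *Rps13* was the main contributor in *KT* libraries and *Rps13-ps1* in non-restored libraries, *KT* replicate 3 held much of both, and the summed *Rps13* level was 539 ± 42.9 and 551 ± 121 CPM (mean ± SD, n = 4 and 10). The *Rps3a1* bar part of *KT* replicate 2 (253 CPM) was as small as those of the non-restored libraries (203 to 360 CPM).

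*Trim12a*, of a cluster of similar genes on chromosome 7, was at 11 to 21.6 CPM in *KT* and at most 0.515 in non-restored tumors (at least 13.1-fold lower). Of its neighbors, *Trim34a* was lower (4.98 to 15.8 against 0.535 to 5.15 CPM; -2.01; adjusted p = 0.00535), *Trim12c* differed by 0.60 (adjusted p = 0.0821) and the cluster's sum by a log2 ratio of -0.64. Around *Stk11* itself, 3 of 192 tested genes within 10 Mb were called (1.56%, beside 5.87% on other chromosomes), the glutathione transferase genes *Gstt1* (-1.51) and *Gstt2* (-1.02) and *Uhrf1bp1l* (-0.67), all lower.

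Tumors of the same age in which the trap had been reverted by FLPo and tamoxifen for 2 weeks (7 libraries, all female) allow the levels of these genes to be set side by side. They share the XTR allele with non-restored tumors, and both comparisons with *KT* share the same 4 *KT* libraries. *Ptprn* stood at 14.8 ± 6.80 CPM in *KT*, 219 ± 115 in non-restored and 18.7 ± 3.72 in restored tumors (mean ± SD), and *Itgb3*, *Tpcn2* and *Nptx1* likewise at 6.67, 12 and 5.77 CPM in restored tumors, each within the *KT* range. Their restored minus non-restored differences were -3.54, -2.82, -1.73 and -2.15 (adjusted p at most 9e-05). Other genes described above as higher, picked after their values were seen, stayed above the *KT* range in every restored library. *Stc1* was at 20.7 to 30.2 CPM in restored tumors against 0 to 2.84 in *KT*, *Homer2* at 17.1 to 69.4 against 5.28 to 12.5, and *Acot7* at 28.5 to 80.2 against 8.92 to 23.3. *Sord* (30.1 ± 8.76 CPM), *Apoc1* (91.5 ± 47.7) and *Ros1* (184 ± 59.7) lay in restored tumors between their *KT* means of 53.5, 303 and 288 CPM and their non-restored means of 8.05, 25.4 and 60.9. *Lyz2* was at 21200 ± 10400 CPM in restored and 19800 ± 6700 in *KT* tumors. Restored replicates 4 and 5, at 5850 and 7750 CPM, lay below every *KT* library and within the non-restored range of 601 to 11000. The other restored libraries lay at 22900 to 31400 CPM. Another set of genes, picked after these values were seen, stood in restored tumors near its level in non-restored tumors. The pseudogene *Gm3608* was at 98 ± 20.6 CPM against 117 ± 48.8 in non-restored and 4.81 ± 1.83 in *KT* tumors, *AI506816* at 2.87 against 2.52 and 29.2, *Rps13* at 101 against 107 and 455, *Cd177* at 4.81 against 3.62 and 161, *Spink5* at 0.526 against 0.430 and 18.8, *Gpam* at 48.5 against 43.2 and 7.81, *Trim12a* at 0.0567 against 0.0515 and 15.6, and *Rps3a1* at 279 against 255 and 1170. Restored minus non-restored differences of these 8 genes ran from -0.26 to 0.96, none called, and restored minus *KT* differences were called for all 8. The set is not complete. *Cyp1b1*, *Cers6* and *Wfdc2*, at 2.68 to 9.69, 9.43 to 37 and 341 to 530 CPM in restored tumors, also lay below every *KT* library. Restored and non-restored tumors share the XTR allele and, by the study's methods, a tdTomato allele chosen for XTR mice, and all mice were of a mixed strain background. For genes that stayed away from their *KT* level in restored tumors, such differences cannot be told apart from an effect of *Lkb1* state.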

How the data were processed

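Neoplastic cells had been sorted as viable cells negative for CD45, CD31, F4/80 and Ter119, and 32 libraries were prepared from total RNA after removal of ribosomal sequences. Reads were aligned by the authors to mm10 with STAR 2.6.1d and quantified per gene with RSEM 1.2.30, and the authors deposited expected counts, TPM and other per-gene values (effective lengths) for each library. Expected counts were rounded and analysed here. TPM, which the authors normalized for length and depth, and effective lengths entered only alternatives. The study's own DESeq2 comparisons were not used.

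The main fit (edgeR 4.0.16, R 4.3.3) took all 21 Trp53 wild-type libraries in 3 groups (4 KT, 10 non-restored and 7 restored), which share an estimate of the spread. It used filterByExpr, TMM scaling, robust quasi-likelihood F tests and Benjamini-Hochberg adjustment at 0.05. The fit was tested on simulated data. A prior count of 2 was added only to the log2 levels of the Stk11 permutation test and of the comparison of same-numbered libraries. SE is the size of the log2 fold change divided by the square root of F. Genes at or under 3 counts in every library of a group were given as bounds against that floor, which covers counting error only. Alternatives were DESeq2 1.42.0, other scalings and filters, length offsets, sex as a covariate, a replicate block, females only, each arm alone, a 2-group fit and each library left out. The counts without KT replicate 1 and without non-restored replicate 8, by list and by chromosome, the sums over gene copies and the list medians at bounds were chosen after seeing the data.

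The text names Stk11, the 15 genes per direction with the smallest adjusted p among those beyond 1 log2 unit, the 8 per direction with the largest fold among called genes of at least 10 CPM, the called members of 37 gene lists and 9 marker lists, and, of members not called, the 3 of highest level per list. Other uncalled members were chosen after their values were seen. The members and lists were chosen with earlier results of these data known. Promoter sequences are from RefSeq on GRCm38.p6, and gene locations from GENCODE on GRCm38. Some alleles and genes of the study are not reported here.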

Additional observations from a re-analysis of the deposited data

Results flagged for a closer look

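The values that follow lay far from the rest of their own group, by Dixon's criterion at the 95% level in groups of 4 and 10 libraries. Chance marks about 1 in 20 groups in this way, and no explanation was tested.

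Non-restored replicate 8 was marked most often. It was lower than the other 9 non-restored libraries for *Apoc1* (6.26 CPM against 17.3 to 43.7), *Slc2a13* (0.232 against 5.17 to 39.7), *Cap2* (0.464 against 14.7 to 227), *Pon3* (71.2 against 195 to 278), *Lcn2* (158 against 354 to 877), *Hmox1* (17.9 against 37 to 54.3), *H2-Eb1* (4.18 against 33 to 102) and *H2-DMa* (2.32 against 22.2 to 37.7). It was higher for *Rps3a1* (360 CPM against 203 to 269) and *Anxa3* (893 against 451 to 642). Its airway marker sum was 6600 CPM, 6580 of it *Muc5b*, against 50.5 to 1400. Its median deviation was 0.08 log2 units on chromosome 1 (others -0.06 to 0.01) and 0.10 on chromosome 19 (others -0.05 to 0.02).

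*KT* replicate 1 was marked for its chromosome medians on chromosomes 8 (-0.20, other *KT* libraries 0.00 to 0.03), 10 (0.21, others 0.00 to 0.02), 13 (-0.24, others 0.01 to 0.04) and 16 (-0.19, others 0.03 to 0.06). It was the lowest *KT* library for *Il34* (12.4 CPM against 16.6 to 18.2) and *Itgb1* (280 against 413 to 432).

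*KT* replicate 2 was low for *Apoc1* (154 CPM against 333 to 373) and *Itga1* (37.4 against 126 to 148) and high for *Nid1* (8.31 against 4.81 to 5.28) and *Ajuba* (8.31 against 4.8 to 5.28). *KT* replicate 3 was low for *Rps13* (335 CPM against 482 to 509) and high for *Bex4* (45.1 against 21.3 to 23.5), and *KT* replicate 4 was high for *Eno1* (79.1 against 53.2 to 57) and *Ldha* (791 against 638 to 658). Non-restored replicate 2 was high for *Spink5* (3.86 CPM against 0 to 0.435) and low for *Sfn* (5.15 against 12.3 to 29.2), and its immune and macrophage marker sums were 47 and 255 CPM against 2 to 10.3 and 41.3 to 95.8. Non-restored replicate 4 was low for *Xylt1* (3.58 CPM against 7.21 to 13.4) and had a median of 0.01 on chromosome 5 (others 0.04 to 0.07), and replicate 7 was low for *H2-T23* (17.6 CPM against 24.4 to 33.5).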

How the results depend on the processing

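The 741 calls kept their direction in all 25 alternatives that tested them, and 72 passed the threshold in each alternative that gave them a p. The count moved by more than 1.5 times among females only (132), in the tamoxifen arm alone (280) and without *KT* replicates 1, 3 or 4 (340, 418 and 459). With any other library left out it ran from 633 (without non-restored replicate 1) to 951 (without non-restored replicate 8). All these fits held fewer libraries, and no cause of the changes was tested. DESeq2 gave 1073 calls (48.1% higher, against 40.6%), a 2-group fit 514, no filter 563 (33.4% higher), and the remaining alternatives 552 to 757. Among females 29 calls were higher and 103 lower. Replicate numbers did not pair the libraries: deviations of same-numbered *KT* and non-restored libraries correlated at -0.028, 0.13, -0.007 and 0.063, and 2 of 4 *KT* and 1 of 4 non-restored libraries correlated best with their own number. A fit with the replicate number as a block gave 705 calls, 482 of them among the 741. The test of sex against *Lkb1* state gave 0 calls, 61 with DESeq2, 1 without a filter, and 0 to 4 with a library left out (the most without non-restored replicate 8). The *Stk11* difference in log2 CPM, with 2 counts added to each library, stayed between -4.57 and -4.3 with a library left out. Of 91 called named genes, 52 lost their call among females only, 39 in the tamoxifen arm alone and 3 under DESeq2, and 0 reversed. *Rps13*, summed with its copies, went from -2.09 to 0.03. At 1302482 to 2649449 counts per *KT* library, a gene with 3 counts or fewer lay at or under 1.22 to 2.49 CPM. A fall from that level in *KT* could not be detected, while rises from it were called, as for *Rbm24* and *Pde10a*.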

Other observations

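Called genes were spread along the chromosomes. Another called gene lay within 2 Mb of 77.1% of the 734 called genes with a location and of 75.5% of genes not called. On chromosome 6, 4 calls were higher and 45 lower, and without *KT* replicate 1 there were 3 and 12. Pseudogenes made up 13 of the 741 calls, of 265 tested.

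Beside the genes grouped by function, the C/EBP-like sequence TTGCNNAA was sought on either strand in the promoter windows. It was present for 9.97% of the 9128 tested genes with a window and for 15.7% of the 357 such genes lower in non-restored tumors. For the 213 higher genes with a window, under the 80% needed for a comparison, the share was 9.39%. The palindrome TTGCGCAA was present for 0.362% of all and 0.28% of lower genes. These are shares of genes whose windows hold the letters, with no test.

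The mesothelial gene *Msln* differed by 4.50 (adjusted p = 0.142), and the mesothelial sum was 0.831 to 8.15 CPM in *KT* and 5.59 to 248 in non-restored tumors. *Msln* alone made up 248 of the 248 CPM in non-restored replicate 4 and 238 of the 239 CPM in replicate 8.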
